A study of Mus musculus with 15 samples.

Results

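The Hox genes of the 4 mouse clusters are described here in every transcript library of the series. Members were taken by symbol and number 38 genes among the 30534 features listed in the libraries: 10 in cluster A on chromosome 6, 10 in cluster B on chromosome 11, 9 in cluster C on chromosome 15 and 9 in cluster D on chromosome 2 (GRCm38). Another Hox gene of the 39 in these clusters is not analysed here. The libraries come from a microfluidic method in which 2 sets of channels, laid across a thin frozen section in turn, leave a pair of DNA barcodes at each crossing, so that each crossing (a pixel) yields the transcripts of a small square of tissue. A pixel can hold several cells or parts of cells.

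Hox genes encode homeodomain transcription factors that give positional identity along the body axis. Within a cluster, genes of low paralog number lie at the 3' end and reach far forward, into the hindbrain, while genes of high paralog number lie at the 5' end and are used in the trunk, the tail and the outgrowing limbs. Neighbouring domains overlap, so that a band of high paralogs usually lies inside the territory of the lower ones. Pbx, Meis and Pknox proteins, the TALE homeodomain family, bind DNA together with Hox proteins. For counting, paralogs were gathered in 5 bands (1-3, 4-5, 6-8, 9-10 and 11-13), with 7, 7, 8, 7 and 9 member genes.

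The 11 sections form 6 groups by embryonic day and pixel width. Day 10 (E10) is covered by 3 sections with 50 µm pixels, 1 with 25 µm pixels and 2 with 10 µm pixels. Day 11 (E11) is covered by 2 sections with 25 µm pixels and 2 with 10 µm pixels, and day 12 (E12) by 1 section with 50 µm pixels. The labels call all of them mouse embryo tissue and give no strain, genotype or treatment, nor the embryo or body part of a section. Replicates are therefore separate sections, and p-values measure the spread between sections, which may include where each embryo was cut. Each grid has 50 by 50 positions, so that finer pixels cover a smaller field, and 4 libraries of antibody tags were not used.

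The upstream sequences of 22 of the 38 members (24 entries) were matched by symbol in RefSeq (GRCm38.p6). The 4 printed here belong to the members on which the results turn most: Hoxb1 as the 3' end of the series, and Hoxa10, Hoxd11 and Hoxd13 as 5' genes near 0 counts in the E10 50 µm sections. Each run holds the 250 bases before the transcription start on the gene's strand, with capitals for matches to TGATNNAT, the letters of a composite Hox and Pbx site, and to TATAAA, on either strand. Hoxb1 lies on the plus strand (chr11:96365508-96365757), Hoxd11 on the plus strand (chr2:74682073-74682322, the downstream of its 2 listed starts), Hoxd13 on the plus strand (chr2:74667975-74668224) and Hoxa10 on the minus strand (chr6:52234940-52235189, the downstream of its 2 listed starts).
Hoxb1: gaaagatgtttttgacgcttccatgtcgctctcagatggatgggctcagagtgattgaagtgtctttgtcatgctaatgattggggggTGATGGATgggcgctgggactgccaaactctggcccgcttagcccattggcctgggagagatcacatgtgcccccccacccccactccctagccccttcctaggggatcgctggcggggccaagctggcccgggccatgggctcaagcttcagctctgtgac
Hoxa10: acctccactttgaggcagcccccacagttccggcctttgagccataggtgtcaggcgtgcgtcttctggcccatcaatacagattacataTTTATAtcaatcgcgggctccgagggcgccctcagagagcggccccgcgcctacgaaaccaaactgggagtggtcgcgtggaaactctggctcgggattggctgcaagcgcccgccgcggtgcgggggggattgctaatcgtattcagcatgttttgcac
Hoxd11: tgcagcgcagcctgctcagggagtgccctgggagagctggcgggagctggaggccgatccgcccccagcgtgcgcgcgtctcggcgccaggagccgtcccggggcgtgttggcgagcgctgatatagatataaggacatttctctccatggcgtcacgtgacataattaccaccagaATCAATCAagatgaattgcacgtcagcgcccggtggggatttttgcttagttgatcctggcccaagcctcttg
Hoxd13: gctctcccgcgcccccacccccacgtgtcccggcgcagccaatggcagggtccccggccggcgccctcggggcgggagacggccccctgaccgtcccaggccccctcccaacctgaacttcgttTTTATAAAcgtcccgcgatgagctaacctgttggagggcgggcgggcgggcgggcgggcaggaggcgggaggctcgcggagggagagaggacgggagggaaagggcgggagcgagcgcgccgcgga

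TGATNNAT occurred in 4 of the 24 member entries (Hoxa2, Hoxb1, Hoxb8 and Hoxd11), or 16.7%, against 7.68% of all 32851 entries of the same length. TATAAA occurred in 16.7% of member entries (Hoxa10, Hoxb8, Hoxd4 and Hoxd13) and in 12.4% of all. TTTATNG, letters bound by 5' Hox and Cdx proteins, was found upstream of Hoxb8 and Hoxd4, 8.33% of member entries against 9.81% of all. The member windows were rich in CpG, with a median of 12.5 CpG dinucleotides in 250 bases against 6 over all entries. Hoxa13, with 35, and Hoxd13, with 31, stood at the top, and Hoxd4, with 3, stood near the bottom of the range of 2 to 35. Such matches describe letters in these windows and do not show binding.

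Total counts over tissue pixels ranged from 1563489 to 11998765 per section, over 829 to 2271 tissue pixels. Sections differed in markers of body parts, also within a group. A list of 8 fore- and midbrain genes (such as Otx2, Six3 and En2) summed to between 287 and 557 counts per 1000000 tissue counts (CPM) in the 6 E10 sections and to 270 in replicate 1 of the E11 10 µm sections. The same list summed to 15.4 and 30.1 CPM in the E11 25 µm sections, 48.9 in replicate 2 of the E11 10 µm sections and 49.7 at E12, with Otx2 at 0 counts in both E11 25 µm sections. Liver genes (Alb, Afp, Apoa1, Ahsg and Serpina1a) ran the other way, from 0.358 to 5.08 CPM at E10 to 861 and 1284 in the E11 25 µm sections and 3049 at E12. The 2 E11 10 µm sections stood apart on this list, with 45.9 CPM in replicate 1 and 3048 in replicate 2. In bulk sums of this kind, fewer cells of a type and less RNA per cell cannot be told apart.

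**Figure D1:**
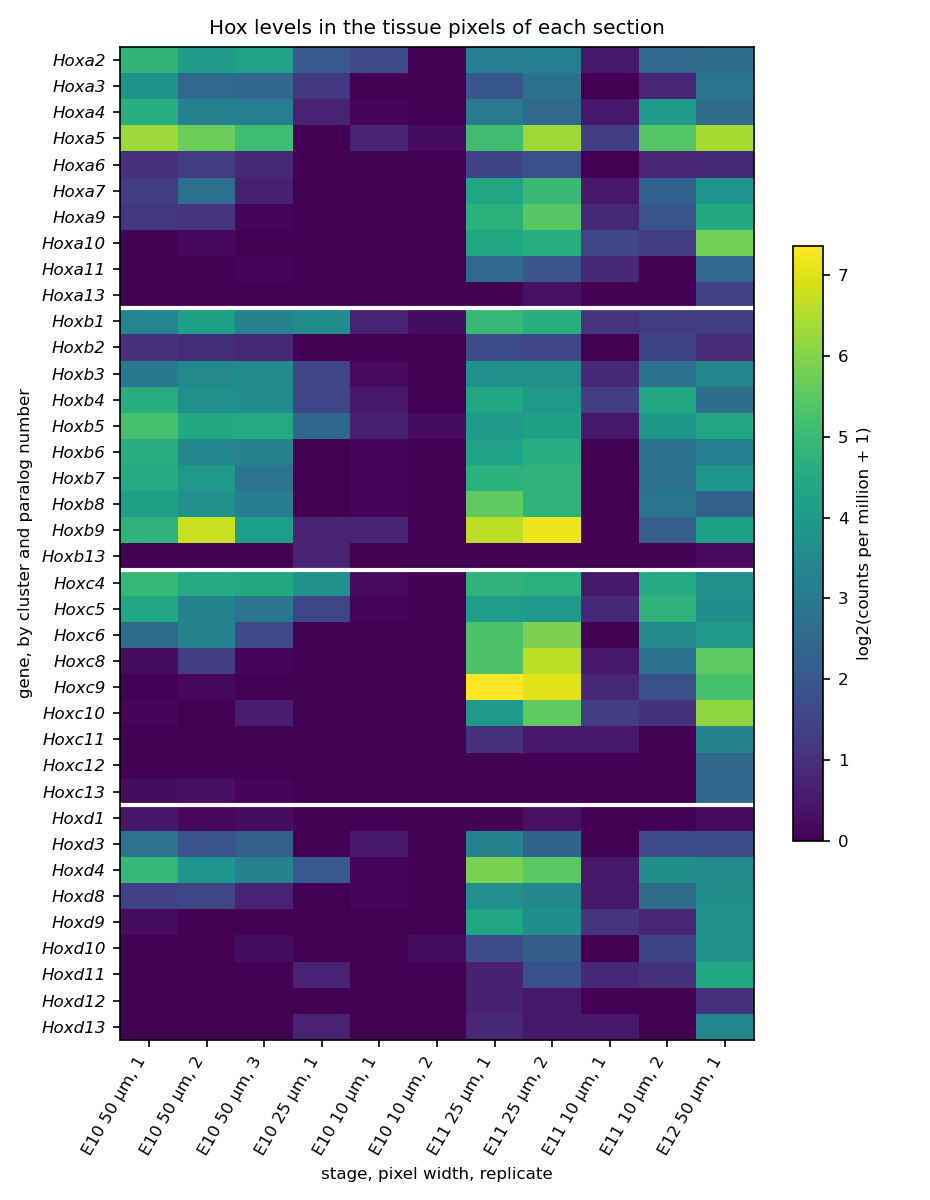
Level of each of the 38 Hox genes (rows, by cluster and paralog number) in each of the 11 sections (columns, by day, pixel width and replicate), as log2(CPM + 1) over tissue pixels. The 3 E10 50 µm columns fade out near paralog 9, both E11 25 µm columns extend to paralogs 10 and 11, and E12 is the column with signal at 11 to 13, while the E10 10 µm columns are nearly empty.

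All 38 members had at least 1 count in some section, and all 38 were seen in the E12 section, where 33 reached 10 counts. In the E11 25 µm sections 28 and 30 members reached 10 counts, in the E10 50 µm sections 22, 22 and 17. Replicate 2 of the E11 10 µm sections had 17 such members and replicate 1 had 0. The E10 25 µm section had 2 (Hoxb1 and Hoxc4), and the E10 10 µm sections had 1 (Hoxa2) and 0. Summed over the members, the Hox level was 402, 352 and 201 CPM in the E10 50 µm sections and 788 and 939 CPM in the E11 25 µm sections. It was 562 CPM at E12, 44.1 CPM in the E10 25 µm section, 6.42 and 0.755 CPM in the E10 10 µm sections, and 17.5 and 226 CPM in the E11 10 µm sections. The E10 10 µm and E10 25 µm sections were thus the lowest with replicate 1 of the E11 10 µm group. Any Hox count was held by 3.45% of pixels of the E10 25 µm section, 3.13% and 0.176% of those of the E10 10 µm sections and 59.6% to 76.4% in the E10 50 µm sections.

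The 3' end of the series, paralogs 1 to 3, had overlapping sums in the 2 groups with the most Hox counts. These were 53.8 ± 8.07 CPM (SD, n = 3) in the E10 50 µm sections and 59 ± 5.01 CPM (SD, n = 2) in the E11 25 µm sections. Hoxa2, needed for the identity of the second branchial arch, stood at 27, 16 and 18.2 CPM in the E10 50 µm sections. It was lower in the later sections, with 7.9 and 8.08 CPM in the E11 25 µm sections and 5.23 at E12. Hoxb1, a gene of a single hindbrain segment that is also active at the growing tail end, stood at 9.25, 17.2 and 8.84 CPM in the E10 50 µm sections. The E11 25 µm sections were higher for Hoxb1, at 29.2 and 23.4 CPM, and E12 was lower, at 1.54, so that these 3 groups did not overlap. Hoxd1 never passed 4 counts in a section.

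Paralogs 4 and 5, whose front edges lie at the hindbrain and neck, made up the largest share of Hox counts in the E10 50 µm sections, 59.3%, 38.9% and 54.7%, and in replicate 2 of the E11 10 µm sections, 66.8%. Their summed level was 162 ± 67.5 CPM (SD, n = 3) in the E10 50 µm sections, 187 ± 14.8 (SD, n = 2) in the E11 25 µm sections and 147 at E12. Hoxa5, which acts in the lung and the neck vertebrae, was the member with the highest level per kilobase of exon in 5 sections. It had 40.5 and 17.4 CPM per kilobase in replicates 1 and 3 of the E10 50 µm group and 44.2 at E12. The E11 10 µm sections had 0.829 and 22.1, where the 0.829 of replicate 1 rests on fewer than 10 counts. Without division by length, Hoxa10 stood above Hoxa5 in that replicate, at 1.95 against 1.56 CPM. Whether counts scale with exon length in these libraries was not tested. In CPM, Hoxa5 was 76, 50.9 and 32.6 in the E10 50 µm sections, 33.2 and 78.4 in the E11 25 µm sections and 82.9 at E12, so that E10 and E11 overlapped and E12 was highest. In the E10 25 µm section the neck gene Hoxc4 led per kilobase, at 4.73 CPM per kilobase against 4.68 for Hoxb1, and 0 counts of paralogs 6 to 8 were found.

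Paralogs 6 to 8, genes of the chest region, had a sum of 51.3 ± 23.1 CPM (SD, n = 3) in the E10 50 µm sections, against 199 and 278 in the E11 25 µm sections, and E12 stood between them at 111 CPM. Hoxc8, which acts in limb-level and thoracic motor neurons, had 2, 12 and 1 counts in the E10 50 µm sections, 195 and 755 in the E11 25 µm sections and 293 at E12. Hoxb8 went another way: 17.2, 12 and 7.62 CPM in the E10 50 µm sections, 46.4 and 26.6 in the E11 25 µm sections, and 3.85 at E12. At E12 the members of cluster C therefore stood high at paralog 8 while their cluster B counterpart stood low.

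Paralogs 9 and 10 divided the clusters. Hoxb9 was present already in the E10 50 µm sections, at 26.8, 106 and 16.6 CPM, and had 98.5 and 144 CPM in the E11 25 µm sections and 17.4 at E12. Replicate 2 of the E10 sections lay within the E11 range for Hoxb9 and the other 2 replicates lay well below it. Hoxc9, a thoracic gene of motor neurons, had 0, 1 and 0 counts in the same E10 sections, in totals of 8390545 to 11348089 counts, and 827 and 995 counts in the E11 25 µm sections. Its annotated span overlaps that of Hoxc5, and how reads there were assigned is not given. Hoxc9 was the gene with the highest level per kilobase in replicate 1 of these (67.2 CPM per kilobase) and next to Hoxb9 in replicate 2 (53.3 against 56.1). The lumbar genes Hoxa10 (0, 1 and 0 counts) and Hoxc10 (1, 0 and 5 counts) were likewise nearly uncounted in the E10 50 µm sections. Hoxa10 had 18.9 and 23.3 CPM in the E11 25 µm sections and 54 at E12, and Hoxc10 had 14.6, 46.4 and 69.8 CPM.

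Paralogs 11 to 13, genes of the sacrum, tail, kidney and the outer limb, had 2 counts in each E10 50 µm section, 0 in each E10 10 µm section, 39 and 52 in the E11 25 µm sections and 361 at E12. As a level this was 0.201 ± 0.033 CPM (SD, n = 3), 7.24 ± 0.654 CPM (SD, n = 2) and 55.5 CPM for the E10 50 µm, E11 25 µm and E12 sections, with no overlap. Hoxa11, a gene of the forearm and shank, had 24 and 22 counts in the E11 25 µm sections and 31 at E12. Hoxd11, its cluster D partner, had 3 and 19 counts at E11 and 136 at E12. The digit and genital gene Hoxd13 had 4 and 3 counts at E11 and 60 at E12, or 9.23 CPM (95% Poisson interval 7.04 to 11.9, counting error only). Hoxc12 was listed at 0 in 10 sections and had 29 counts at E12. In the E10 50 µm sections 0 counts allow a level of up to 0.264, 0.358 and 0.282 CPM (3 counts of each total). Hoxb13, the 5' end of cluster B, had 1 count at E12, 1 in the E10 25 µm section and 0 elsewhere.

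**Figure D2:**
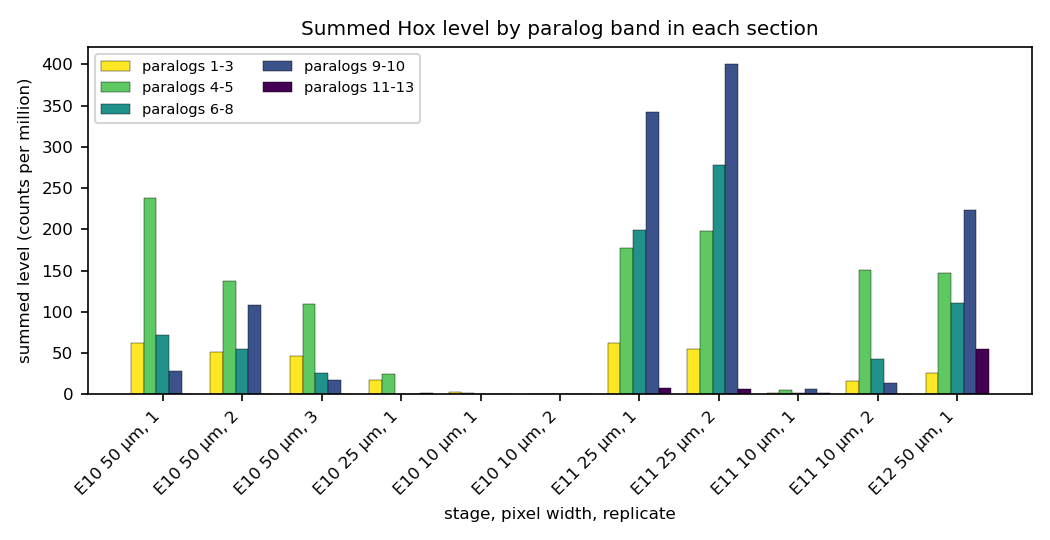
Summed level of each paralog band (bars, in CPM, from 0) in each of the 11 sections. The E10 50 µm sections are led by paralogs 4-5, the E11 25 µm sections by paralogs 9-10 at 342 and 401 CPM, and E12 is the section where paralogs 11-13 form a visible bar, at 55.5 CPM.

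The highest paralog number whose genes had at least 10 counts in sum describes how far along the series each section reached. It depends on depth, and high paralogs are also used in the limbs, so it is not a position along the body. It was 9 in each of the 3 E10 50 µm sections, 5 in the E10 25 µm section, and 5 and none in the E10 10 µm sections. It was 11 in both E11 25 µm sections, none and 10 in the E11 10 µm sections, and 13 at E12. By cluster, with 10 counts asked of a single gene, the E10 50 µm sections ended at Hoxa9, Hoxb9, Hoxc6 and Hoxd8 (replicate 1), at Hoxa9, Hoxb9, Hoxc8 and Hoxd8 (replicate 2), and at Hoxa5, Hoxb9, Hoxc6 and Hoxd4 (replicate 3). The E11 25 µm sections ended at Hoxa11, Hoxb9, Hoxc10 and Hoxd10 (replicate 1) or Hoxd11 (replicate 2). Replicate 2 of the E11 10 µm sections ended at Hoxa7, Hoxb9, Hoxc8 and Hoxd8, and E12 ended at Hoxa13, Hoxb9, Hoxc13 and Hoxd13. Cluster B thus stopped at Hoxb9 in all 7 sections that reached paralog 9 or beyond, with Hoxb13 as its next member.

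Body markers differed between these sections. T (brachyury), the gene of the tail bud and notochord, stood at 18.9 and 13.8 CPM in the E11 25 µm sections and between 0 and 1.56 CPM in every other section. Tbx4, a hindlimb gene, stood at 9.87 and 22.9 CPM there and at 19.8 at E12, against 0.189 to 4.38 elsewhere. The sections without any paralog at 10 counts, replicate 2 of the E10 10 µm group and replicate 1 of the E11 10 µm group, had heart lists (Myh6, Myh7, Tnnt2, Myl7 and Nppa) of 8.3 and 45.1 CPM and fore- and midbrain lists of 557 and 270. The section ending at paralog 10, replicate 2 of the E11 10 µm group, had the highest heart list, 3761 CPM, with Tbx5, the forelimb and heart gene, at 30.6 CPM and the body wall gene Wt1 at 103. Paralog 10 had 12 counts there and 9 in replicate 1 of that group, or 4.38 and 3.5 CPM. Paralog 11 had 3 and 5 counts, so the limit of 10 counts set these replicates apart by highest paralog.

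The stage comparison with the deepest Hox coverage set the single E12 section against the 3 E10 50 µm sections. It asked which genes differ between days at one pixel width, but the sections also differ in the body-part markers above, and stage and body part cannot be told apart. Counts summed over tissue pixels were tested with edgeR's quasi-likelihood test in 1 fit of all 11 sections, in which the lone E12 section is assumed to vary like the other groups. Of the 38 members 34 passed the filter on low counts, and those that passed only because 1 group was high had to differ, so their number is a description. At an adjusted p of 0.05 (Benjamini-Hochberg over 18233 genes), 13 members were higher at E12, against 1.93% of all genes tested, and 1 was lower, against 0.214%. The 13 were Hoxa9, Hoxa10, Hoxa11, Hoxc8, Hoxc9, Hoxc10, Hoxc11, Hoxc12, Hoxc13, Hoxd9, Hoxd10, Hoxd11 and Hoxd13. All 6 tested genes of paralogs 11-13 and 6 of 7 genes of paralogs 9-10 were among them, with Hoxb9 the exception. Of the 13, 0 belonged to cluster B. The median log2 difference was 0.29 over tested members and -0.04 over all genes, and by band it was -0.54, -0.76, 0.65, 7.16 and 8.34 from paralogs 1-3 to 11-13.

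The largest differences were those of genes at or near 0 counts on day 10. Hoxd11 was at least 212-fold higher at E12 (20.9 CPM against 0 counts; edgeR adjusted p = 0.002), a lower bound set by 3 counts over the group. Hoxd13, Hoxc11 and Hoxc12 were at least 93.5-fold, 88.8-fold and 45.2-fold higher on the same bound. These 3 genes passed the filter on low counts through the E12 section, so they had to differ, and their folds are a description. Hoxa10 had 351 counts at E12 and 1 in the 3 E10 sections, a ratio of levels of 1640 (95% counting interval 292 to 64966; edgeR adjusted p = 2.8e-05). Hoxc9, with 235 counts against 1, had a ratio of 1098 (interval 195 to 43556; edgeR adjusted p = 2.8e-05), and Hoxd10, with 80 against 2, a ratio of 187 (interval 50.1 to 1570; edgeR adjusted p = 0.00677). Hoxc10 differed by 8.32 ± 0.78 on the log2 scale (SE; edgeR adjusted p = 0.000712), with 0.0881, 0 and 0.47 CPM on day 10 and 69.8 at E12. Every E10 50 µm value of these 8 genes lay below the E12 value. This was largely set by choosing the called genes with the largest differences, so it is a description.

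Among paralogs 1 to 7 the single call was that of Hoxb1. Hoxb1 was lower at E12 (log2 difference -2.98 ± 0.71, SE; edgeR adjusted p = 0.0498). Hoxb9 did not pass (-1.61 ± 1.34, SE; edgeR adjusted p = 0.673), and neither did Hoxa5 (0.60 ± 1.14, SE; edgeR adjusted p = 0.875) or Hoxd8 (2.97 ± 0.78, SE; edgeR adjusted p = 0.0767). The calls of Hoxa10, Hoxc9, Hoxc10, Hoxd9, Hoxd10, Hoxd11 and Hoxd13 held under all 17 alternatives run. Each alternative keeps the same single E12 section. Hoxd13 passed the filter on low counts through that section, so its call remains a description. Those of Hoxa9, Hoxa11 and Hoxc8 were lost under 3, 5 and 7 of 17, those of Hoxc12 and Hoxc13 under 5 and 6 of 16, and that of Hoxb1 under 9 of 17. Hoxc11 lost its call in DESeq2 (adjusted p = 0.607). The number of higher calls dropped to 8 when replicate 1 of the E10 50 µm group or either E11 25 µm section was left out, and the lower call of Hoxb1 was lost on leaving out any of the 3 E10 50 µm or either of the E11 25 µm sections.

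**Figure D3:**
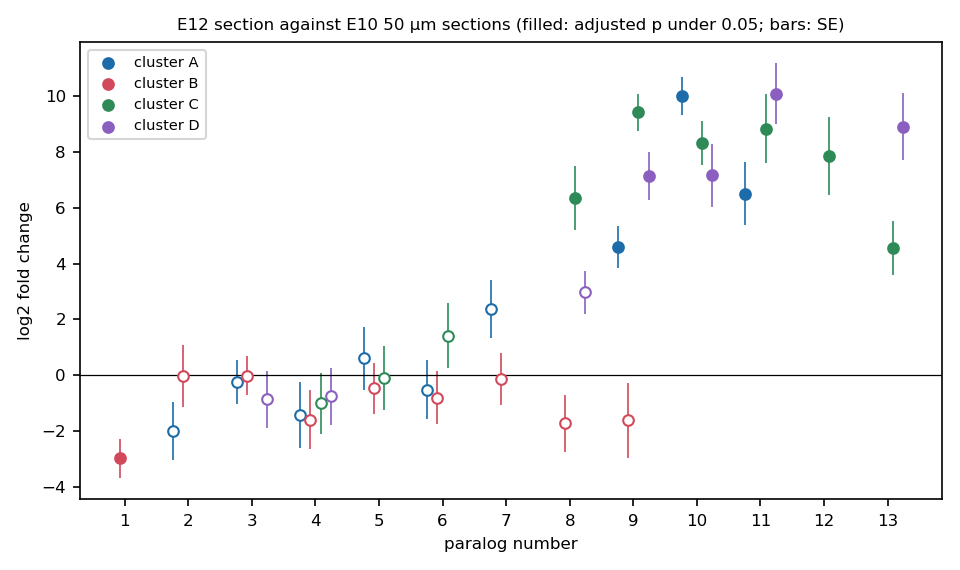
Log2 fold change of the 34 tested Hox genes in the E12 section against the 3 E10 50 µm sections (y axis), by paralog number (x axis) and cluster (colour), with standard errors as bars and filled points for adjusted p under 0.05 in edgeR. Points lie between -2.98 and 2.37 up to paralog 7, and from paralog 9 upward all are filled and above 4 on the log2 scale except Hoxb9. Values of genes with 0 counts on day 10 depend on the prior count of the fit.

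Between days 10 and 11 with 25 µm pixels, Hoxc9 and Hoxa10 were the members called, both higher at E11, against 0.214% of all genes higher and 0.241% lower. The lone E10 25 µm section is assumed here to vary like the other groups. Hoxc9 had 163 and 130 CPM at E11 and 0 counts in the E10 section, at least 76.3-fold higher (edgeR adjusted p = 0.00147). Hoxa10 was at least 11-fold higher (18.9 and 23.3 CPM against 0 counts; edgeR adjusted p = 0.0289). Hox counts at E10 were few, 69 in 1563489. Of 34 tested members 21 had an unadjusted p under 0.05 in edgeR, against 2516 of all 18233 genes tested. Among the members 0 were called lower by edgeR or DESeq2 and 0 had a negative difference. DESeq2 called 5 members higher. The DESeq2 shares over all genes, for this comparison and those below, are not given here. The number of higher calls was 1 without either E11 25 µm section, 9 when either E11 10 µm section was dropped, and 4 when replicate 3 of the E10 50 µm group was. T was called higher beside them.

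With 10 µm pixels, 5 members were higher on day 11 than on day 10, against 2.56% of all genes, and 0 were lower, against 0.773%; 0 had a negative difference and DESeq2 called 0 lower and 15 higher. Hoxa10 and Hoxc9 were at least 9.81-fold and 9.6-fold higher (edgeR adjusted p = 0.0141 and 0.0201), with 5 and 4 counts and 2 and 7 counts at E11 and 0 on day 10. Hoxb4, a neck-level gene, had 1.56 and 20.4 CPM at E11 and 0.417 and 0 on day 10 (log2 difference 5.26 ± 1.17, SE; edgeR adjusted p = 0.0417). Hoxb3 had 2 and 15 counts at E11 against 2 and 0, a ratio of 27.7 (interval 6.57 to 247; edgeR adjusted p = 0.028). Hoxd8 had 1 and 14 against 1 and 0, a ratio of 48.8 (interval 7.51 to 2056; edgeR adjusted p = 0.0446). The 2 E11 sections had 17.5 and 226 CPM of Hox in sum, and the number of calls rested on single sections: dropping replicate 1 of the E10 10 µm group gave 0, dropping replicate 2 of either group 1, and dropping replicate 1 of the E11 10 µm group 18. It was 3 when replicate 1 of the E10 50 µm group was dropped and 2 when either E11 25 µm section was.

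Within day 10, the 10 µm sections were compared with the 50 µm sections. Hoxa3, Hoxb1 and Hoxb3 were lower with 10 µm pixels, against 0.104% of all genes lower and 0.00548% higher, and 0 members were higher in edgeR or DESeq2 or had a positive difference. Hoxa3 had 141, 40 and 49 counts in the 50 µm sections and 0 in the 10 µm sections, at least 41.9-fold lower (edgeR adjusted p = 0.0339). Hoxb1 differed by -4.53 ± 0.60 on the log2 scale (SE; edgeR adjusted p = 0.0339), and Hoxb3 had 275 counts in all against 2, a ratio of 78.3 (interval 21.5 to 650; edgeR adjusted p = 0.0339). DESeq2 called 19 lower. The edgeR count was 0 when replicate 1 or 3 of the 50 µm group, replicate 2 of the 10 µm group or either E11 25 µm section was dropped. It was 1 when replicate 2 of the 50 µm group was dropped, and 16 when either E11 10 µm section was. Lhx1, a marker of the spinal cord, was called lower beside them.

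Within day 11, 6 members were lower with 10 µm than with 25 µm pixels, against 0.455% of all genes, and 0 were higher, against 1.62%. Hoxc9 differed by -6.54 ± 0.55 on the log2 scale (SE; edgeR adjusted p = 0.000249), with 0.778 and 2.55 CPM against 163 and 130. Hoxc10, Hoxb1 and Hoxa9 differed by -4.62 ± 0.81, -4.42 ± 0.63 and -4.27 ± 0.85 (SE; edgeR adjusted p = 0.0172, 0.00338 and 0.0303), and Hoxd9 and Hoxa10 by -4.10 ± 0.80 and -3.74 ± 0.57 (SE; edgeR adjusted p = 0.0233 and 0.00701). Of the 34 tested members 20 had an unadjusted p under 0.05 in edgeR, against 2094 of all 18233 genes tested. A positive difference was seen in 1 member, Hoxa4, with 0.27 ± 1.00 (SE). DESeq2 called 0 higher and 7 lower. The sections of both widths differ by the fore- and midbrain, heart and liver lists given above, so that pixel width and body part cannot be told apart. The count of lower calls was 2 when replicate 2 of the 25 µm group was dropped and 14 when replicate 2 of the 10 µm group was.

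The comparisons with E10 50 µm, E11 25 µm and E10 10 µm sections share these groups with each other, and their values for 1 gene are not independent. Side by side, Hoxc9 and Hoxa10 were called in 4 of the 5 comparisons, and Hoxb1 in 3.

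The position of each count shows how these levels are laid out. In the E10 50 µm sections, distance was measured in grid steps from the centre of the fore- and midbrain markers. The median distance of a count of paralogs 1-3 was 23.3, 23.7 and 18.6 steps in the 3 sections, against 13, 12.5 and 11.9 for all tissue pixels. It was 25.7, 25 and 25.4 steps for paralogs 4-5, 25.9, 25.7 and 27.3 for paralogs 6-8, and 27.2, 25.9 and 28.5 for paralogs 9-10. The order of the 4 bands by median was the same in each section, and the difference between the first and the last was 5.36 ± 4.03 steps (SD, n = 3). The distance that held the nearest 10% of counts did not follow this order. From paralogs 1-3 to 9-10 it was 8.55, 10.4, 8.83 and 11 steps in replicate 1. It was 9.91, 11.6, 10.3 and 18 in replicate 2, and 6.96, 5.83, 6.96 and 5.87 in replicate 3. Hoxa2 lay nearest in each section, at 21.1, 16.5 and 13.3 steps in the median, except that Hoxb4 lay nearer in replicate 3, at 12.8. Hoxb9 lay at 27.1, 25.9 and 28.7. Across genes with at least 10 counts, which share a section and are not independent, paralog number and median distance had a Spearman rho of 0.82 (22 genes), 0.65 (22 genes) and 0.81 (17 genes). Within cluster A rho was 1.00 and 0.95 over 7 genes in replicates 1 and 2, and within cluster B it was 0.78, 0.75 and 0.92 over 9, 8 and 8 genes.

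**Figure D4:**
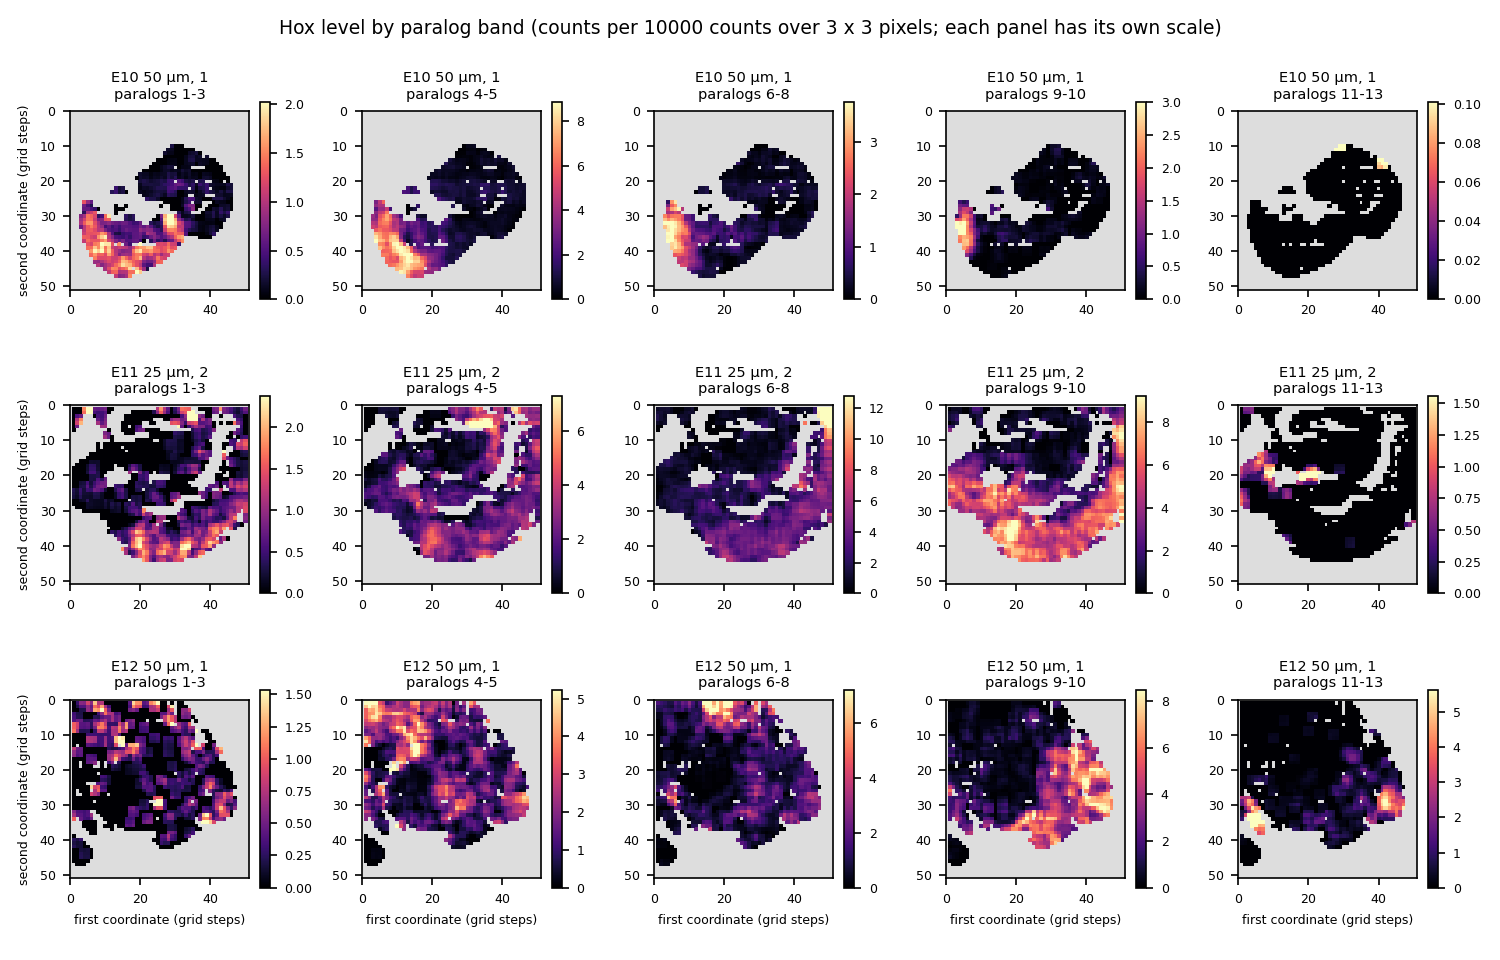
Maps of the summed level of each paralog band (columns) over the tissue pixels of an E10 50 µm, an E11 25 µm and the E12 section (rows). Colour is counts per 10000 over 3 by 3 pixels with its own scale in each panel, and grey is off the tissue. In the E10 section the bright area shrinks from the lower arc to its left tip from paralogs 1-3 to 9-10, and at E12 paralogs 11-13 form a spot at the left edge and another at the right.

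Nesting was described over blocks of 5 by 5 pixels, with a band counted as present at 3 or more counts. Of the blocks with paralogs 9-10 in the E10 50 µm sections, 100%, 68.2% and 100% also held paralogs 6-8, against 91.9%, 48.8% and 64.9% of all blocks. In the E11 25 µm sections the shares were 84.8% and 100%, against 75% and 95.8% of all blocks. At E12, 24 of 25 blocks with paralogs 11-13 (96%) held paralogs 9-10, against 87.3% of all blocks. For paralogs 1-3 and 4-5 the reverse share was larger. In the E10 50 µm sections 80.6%, 69.4% and 77.8% of blocks with paralogs 4-5 held paralogs 1-3 (78.4%, 61% and 75.7% of all blocks). There 100% of blocks with paralogs 1-3 held 4-5 (97.3%, 87.8% and 97.3% of all). In the E11 25 µm and E12 sections the first share was 45.9%, 53.8% and 42.4% (38.2%, 52.1% and 39.7% of all). The reverse was 96.6%, 94.6% and 100% (80.3%, 91.5% and 93.7% of all). For paralogs 9-10 within 6-8, the margin over all blocks was wide in E10 50 µm replicate 3. It was narrow in E11 25 µm replicate 2, where most blocks held paralogs 6-8. In that E10 section the blocks with paralogs 9-10 were also deeper, with a median of 356872 counts against 235837 over all blocks. Deeper blocks reach a fixed limit of 3 counts more easily.

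A measure of concentration, chosen after these shares were seen, gave more contrast. It takes the fewest blocks, ranked by level, that hold 50% of a band's counts, and gives the share of all tissue counts in these core blocks. In E10 50 µm replicate 1 the core held 23.1% of tissue counts for paralogs 1-3, 17% for 4-5, 14.6% for 6-8 and 11.7% for 9-10. In replicate 2 the shares were 15.7%, 12.1%, 7.46% and 7.46%, and in replicate 3 they were 13.5%, 10.5%, 5.62% and 3.72%. The core narrowed from one band to the next in replicates 1 and 3, and in replicate 2 up to paralogs 6-8, whose core was as large as that of 9-10. Bands with fewer counts can give smaller cores by sampling. In blocks, paralogs 9-10 had 292, 819 and 175 counts in replicates 1, 2 and 3, and paralogs 1-3 had 644, 401 and 481. The part of sampling in these shares was not tested. The core blocks of paralogs 1-3 held 53.1%, 74.7% and 68% of the counts of paralogs 9-10, while the core of paralogs 9-10 held 25.2%, 26.7% and 17.7% of the counts of paralogs 1-3. These cores differ in size, at 23.1%, 15.7% and 13.5% of tissue counts against 11.7%, 7.46% and 3.72%. A larger core can hold more counts of any band, so the unequal shares do not by themselves show nesting.

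This order did not recur in the E11 25 µm sections, where paralogs 1-3 had the smallest core of the 4 bands, 17.5% and 26.6% of tissue counts. The cores of paralogs 4-5, 6-8 and 9-10 took 30.5%, 28.7% and 28.2% in replicate 1 and 32.4%, 27.6% and 30.4% in replicate 2. The core of paralogs 6-8 held 40.6% and 39.8% of the counts of paralogs 9-10. At E12 paralogs 11-13 had the smallest core, 7.96% of tissue counts in 6 of 63 blocks, against 20.3% for paralogs 9-10, 23.9% for 6-8, 28.4% for 4-5 and 23.4% for 1-3. The core of paralogs 9-10 held 54.7% of the counts of paralogs 11-13 and 20.6% of those of paralogs 4-5, about its share of tissue.

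In the E11 sections the paralogs differed in their level in neural tissue. Pixels at or above the 75th percentile of the spinal cord and neural tube list (Sox2, Pax6, Olig2, Nkx6-1, Lhx1 and Pax3), over 3 by 3 neighbourhoods, were compared with the other pixels of the same section. In the E10 50 µm sections the summed Hox level was 3.13, 4.23 and 2.61 times that of the other pixels. In the E11 25 µm sections Hoxb1 had ratios of 7.31 and 5.96, Hoxd3 5.63 and 5.65, Hoxb9 4.12 and 4.83, and Hoxc9 4.01 and 2.88. With the highest 10% of pixels as neural-rich, a limit chosen after seeing the data, the mean of both sections was 2.51 in place of 6.63 for Hoxb1 and 2.52 in place of 4.48 for Hoxb9. Below 1 in both sections lay Hoxa10 at 0.601 and 0.386, Hoxc10 at 0.434 and 0.282, Hoxd9 at 0.921 and 0.602, and paralogs 11-13 together at 0.251 and 0.0323. The split did not follow paralog number alone: Hoxa9 had ratios of 1.6 and 1.86, and Hoxa4 and Hoxc5 were below 1 in replicate 1, at 0.964 and 0.901, and above it in replicate 2. Hoxb9 and Hoxa10, neighbours in paralog number, thus differed in where they lay within the same sections. At E12, Hoxb9 again had a high ratio, 4.33, while Hoxa10 and Hoxc10 stood near 1, at 1.16 and 1.1, and Hoxc11 had the highest ratio of a gene with counts on both sides, 5.73. Pixels of a section are not replicates, so these ratios carry no test.

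**Figure D5:**
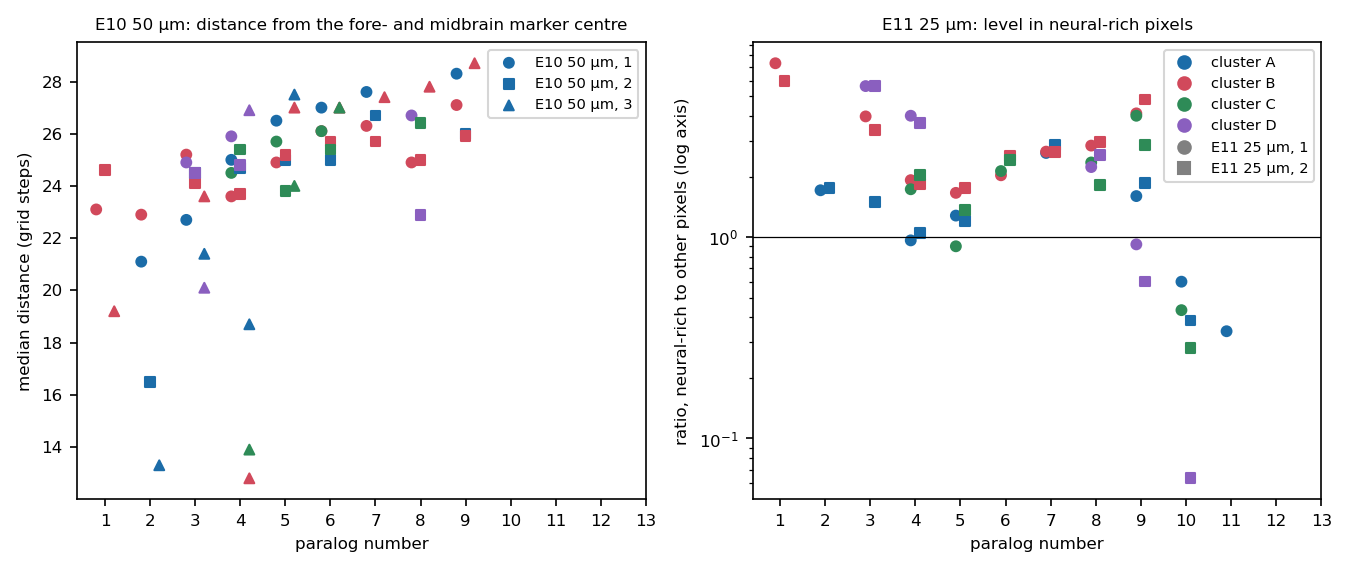
Left, median distance of each Hox gene from the fore- and midbrain marker centre (grid steps) by paralog number in the 3 E10 50 µm sections (symbols), coloured by cluster as in the right panel. Right, ratio of the level in neural-rich to other pixels (log axis) in the 2 E11 25 µm sections, without ratios of 0, where Hoxb1 lies highest, at 7.31 and 5.96, and paralogs 10 and 11 lie below 1.

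The pixels around paralogs 11-13 at E11 had higher levels of limb genes. Within 3 by 3 neighbourhoods that held a count of these paralogs (246 and 177 pixels), the limb list (Tbx5, Tbx4, Pitx1, Prrx1, Lmx1b and Shh) was 2.55 and 3.7 times the level of the other pixels. Tbx4 was 5.03 and 7.44 times higher, Pitx1, also a hindlimb gene, 5.29 and 6.72 times, and Hoxa10 3.16 and 5.36 times. Tbx5, the forelimb gene, was not higher, at 0.305 and 0.885 times, and neither was Shh, at 0.7 and 0.214 times. The tail bud list was at 0.192 and 0.34 times, and the neural list at 0.534 and 0.312. Prrx1, a gene of limb and other mesenchyme, stood at 3.32 and 4.58 times. By the same measure at E12 (679 pixels), the limb list stood at 1.06 times. There Tbx4 stood at 0.953 times, Pitx1 at 1.55, Prrx1 at 1.06, Tbx5 at 0.473 and Shh at 3.09. A list of neuron genes stood at 3.09 times and the neural list at 2.34.

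At E12 the paralogs 11-13 were brightest in 2 areas that differed in members, and whose bounds were set on the map after it was seen. The left area (first coordinate 1 to 10, second 25 to 40) had 105 pixels and 4.85% of tissue counts, and the right area (38 to 48, 24 to 33) had 92 pixels and 7.5%. They held 76 and 138 of the 361 counts of these paralogs, and the other 147 (40.7%) lay in the rest of the section. Hoxd13 had 40 of its 60 counts on the left (66.7%, 95% Wilson interval 54.1 to 77.3) and 6 on the right. Hoxa13 had 8 of 11 on the left and 0 on the right. Hoxd12 had 4 of its 7 counts on the left. Hoxc12 had 28 of 29 counts on the right (96.6%, interval 82.8 to 99.4) and 0 on the left, and Hoxc11 had 34 of 57 on the right (59.6%, interval 46.7 to 71.4) and 2 on the left. Hoxc13 was shared, with 8 of 29 on the left and 16 on the right, and Hoxd11 had 14 and 48 of 136, with the remaining 74 outside both areas. Hoxa11 had 26 of its 31 counts outside both areas, 5 on the right and 0 on the left. Intervals cover counting error only.

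The markers of both areas differed too. Neuron genes (Tubb3, Elavl3, Stmn2 and Dcx) summed to 3226 CPM on the right, 413 on the left and 231 in the rest of the section, and the neural tube list to 453, 85.7 and 52.5 CPM. Hoxb9 stood at 100 CPM on the right and 12.7 on the left. On the left Tbx5 stood at 54 CPM against 0 on the right and 22.1 in the rest, Prrx1 at 321, 71.8 and 280, and Lhx9, a gene of distal limb and gonad, at 124, 12.3 and 13.3. Tbx4 stood at 9.52, 2.05 and 21.9 CPM. The whole limb list stood at 419, 90.2 and 361 CPM, with Pitx1 at 12.7, 10.3 and 30.5. Of the urogenital list that holds Lhx9, Osr1 stood at 28.6, 24.6 and 65.8 CPM and Wt1 at 38.1, 10.3 and 47.6. The branchial arch list stood at 222 CPM on the left, 30.8 on the right and 73.7 in the rest.

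Hox cofactors, axial regulators and cluster neighbours gave few calls. Of the 9 TALE cofactors, all tested, Meis3 was called lower at E12 than in the E10 50 µm sections (log2 difference -2.08 ± 0.43, SE; edgeR adjusted p = 0.0278) and 0 were called in the other 4 comparisons. Meis2 stood at 282, 304 and 287 CPM in the E10 50 µm sections and at 400 at E12. Over blocks of the E10 50 µm sections the TALE list had a Spearman rho of 0.84, 0.79 and 0.80 with paralogs 1-3 and of 0.71, 0.68 and 0.71 with paralogs 4-5. In the E11 25 µm sections rho was 0.12 and 0.24 with paralogs 1-3 and 0.43 and 0.41 with paralogs 4-5, and at E12 it was 0.30 and 0.37. Of the 21 axial regulators (such as Cdx genes and T), 19 had a column and 14 were tested. T was called higher at E11 than at E10 with 25 µm pixels (9.89 ± 1.90, SE; edgeR adjusted p = 0.0443) and lower at E11 with 10 µm than with 25 µm pixels (-4.21 ± 0.70, SE; edgeR adjusted p = 0.00896), and 0 others were called. Cdx1 and Cdx4 had 2 counts or fewer in every section. Of 17 neighbours of the clusters and RNAs within them, 10 were tested and 0 were called in the 5 comparisons.

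Among other lists, Tbx4 (limb; 4.30 ± 0.81, SE), Ahsg (liver; 10.39 ± 0.80), Osr1 (urogenital; 2.80 ± 0.36) and Hba-a1 (adult globin; 2.74 ± 0.44) were higher at E12 than in the E10 50 µm sections in edgeR (adjusted p = 0.0202, 3.18e-05, 0.002 and 0.0075), and the embryonic globin Hbb-bh1 was lower (-3.28 ± 0.51, SE; adjusted p = 0.0059). Dcx was lower and Barx1, a branchial arch gene, higher at E11 than at E10 with 10 µm pixels (-1.55 ± 0.38 and 5.33 ± 0.97, SE; edgeR adjusted p = 0.0468 and 0.0118). In the E10 10 µm against the 50 µm sections Lhx1 was lower (-2.85 ± 0.47, SE; edgeR adjusted p = 0.0481). These genes come from lists of body parts and of cell types such as blood and neurons. They passed the test beside the members, and their part in the Hox differences was not tested.

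Outside the lists, genes among the 5 whose level over blocks was most like that of paralogs 9-13 are named in each of the 6 sections with at least 100 such counts, as a description over blocks that share depth and tissue. Sox11, a gene of immature neurons and mesenchyme, was among them in both E11 25 µm sections (rho = 0.69 over 76 blocks and 0.73 over 71) and led at E12 (0.64 over 63 blocks). Psip1 was among them in both E11 25 µm sections (0.70 and 0.69), beside Marcks, Tuba1a and Notch1 in replicate 1 and Igdcc3, Eef1a1 and Elavl2 in replicate 2. At E12 Gng2, Zmiz1, Wbscr17 and Mpnd followed, at 0.62 to 0.59. In the E10 50 µm sections, over 37, 41 and 37 blocks, the leading genes were Mrpl52 (0.62), Pdzrn3, Nrep and Fam220a in replicate 1. They were Smug1 (0.73), Plxna2, Meis1, Fndc5 and Nrep in replicate 2, and Slu7 (0.62), Creld2, Jade3, Mettl17 and Rps3a2 in replicate 3, so that Nrep alone was shared by 2 of the 3.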

How the data were processed

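Per the labels' protocols, frozen mouse embryos were cut into thin sections, and libraries were built with Nextera XT. The authors deposited, per section, a table of whole-number counts per pixel and gene. Per the submitters' processing notes CASAVA 1.8.2 and the build GRCh38 are named; aligner, annotation and use of strand are not given in the sources used here, so it is not known how reads were assigned where annotated gene spans overlap (Hoxa3 with Hoxa4, Hoxa5 and Hoxa6, Hoxc5 with Hoxc6, Hoxc8, Hoxc9 and Hoxc10, Hoxd3 with Hoxd4). Antibody-tag libraries were not used here.

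A pixel was kept as tissue where its total reached 0.1 of the section's 95th percentile. Counts of tissue pixels were summed per section and tested with edgeR 4.0.16 (R 4.3.3; TMM, filterByExpr, robust quasi-likelihood, 6 group means, two-sided, Benjamini-Hochberg). The fit was also run on simulated data with the same dispersion for every gene and changes in well-counted genes only. That setting does not cover members near 0 counts. DESeq2 1.42.0, other normalizations, filters, tissue limits and leaving out each section were alternatives. CPM are per 1000000 tissue counts, and exon lengths are from GENCODE M21. Members and lists were chosen with earlier results of these data known. In each comparison up to 8 called members with the largest log2 fold change are given in full, and called list genes are named, except that some genes are not reported here. Positions were read from pixel coordinates with Python 3.11.15 (scipy 1.17.1).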

Additional observations from a re-analysis of the deposited data

How the results depend on the processing

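Of the 180 counts of members called under alternatives, 137 stayed within 1.5 times, 27 were smaller, 16 larger and 0 changed direction. Leaving out 1 section in turn gave, for E12 against E10 50 µm, 8 to 14 higher and 0 to 1 lower; for E11 against E10 with 25 µm pixels, 1 to 9 higher; with 10 µm pixels, 0 to 18 higher; for E10 10 µm against 50 µm, 0 to 16 lower; and for E11 10 µm against 25 µm, 2 to 14 lower. Without a filter on low counts, 2 were lower at E12, 13 and 19 higher at E11 with 25 and 10 µm pixels, 19 lower in the E10 and 14 lower in the E11 width comparison. Without that filter genes at 0 in most sections enter the fit. DESeq2 called 5, 15 and 19 in the 2 E11 against E10 and the E10 width comparisons. The lower call of Hoxb1 at E12 was 0 under DESeq2's size factors, under a tissue limit of 0.2, without the robust fit and without pseudogene symbols, and the fit without the robust option gave 9 higher at E11 with 10 µm pixels. The cause was not tested.

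The highest paralog moved under 2 rules. At 3 counts it was 10 in E10 50 µm replicate 3, 9 in E10 10 µm replicate 1, 13 in both E11 25 µm sections and 11 in both E11 10 µm sections. At 1 CPM it was 13 in the E10 25 µm section, where 1 CPM is about 2 counts, and 11 in both E11 10 µm sections. Nesting of paralogs 9-10 in the E11 25 µm sections was 80.2% with 3 by 3 blocks, and that of 11-13 at E12 was 100% with 10 by 10 blocks, with 1 count, and with thinned blocks. With the highest 10% of pixels as neural-rich, a limit chosen after seeing the data, Hoxa10 in the E11 25 µm sections had 0.437 in place of 0.494 and Hoxc10 0.481 in place of 0.358. With the head centre from Otx2 alone, also chosen after seeing the data, the distance difference was 5.71 in place of 5.36 steps.

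The E11 titles share replicate numbers, but they are only numbers: over genes, same-numbered sections deviated together with r = 0.046. With the replicate block, 8 members were lower and 0 higher with 10 than with 25 µm pixels, and the same 4 sections without the block gave 8 and 0.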
